A study of Mus musculus with 16 samples.

Results

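The response of skeletal muscle to denervation was compared between isolated fibers and whole muscle, gene by gene, as a contrast of contrasts. The value given for each gene, called its interaction, is the log2 change after sciatic nerve transection (DEN) against sham surgery in muscle fibers isolated from the extensor digitorum longus (EDL), minus the same log2 change in the whole tibialis anterior (TA). A negative interaction therefore means that the DEN effect was lower, or less positive, in fibers than in whole muscle. The members are all genes that passed a filter on low counts, and 16 of the 16 libraries of the series entered, in 4 groups of 4: DEN fibers, sham fibers, DEN TA and sham TA. The mice were young C57BL/6J males, the nerve was cut on 1 side or was located and left intact, and tissue was taken 21 days later. Fibers were freed by enzymatic digestion with collagenase as single myofibers, a step meant to remove cells outside the basal lamina, whereas the TA was taken whole. Preparation thus went together with muscle (EDL or TA) and with digestion, and these cannot be told apart. No label named the animal behind a library or told whether the 2 muscles were taken from shared animals, so p values measured the spread between these libraries.

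Cutting the motor nerve removes synaptic activity and neurotrophic input from the fiber. Fibers without a nerve lose mass, and are known to switch on myogenin, acetylcholine receptor subunits along the whole fiber, and genes of protein breakdown. The transected nerve stump loses its myelin, and macrophages clear it. Immediate early genes such as Jun, Junb and Egr3 encode transcription factors that cells induce within minutes of a stimulus, and heat shock genes encode chaperones that are induced when proteins unfold. Both classes are known to respond to handling of tissue as well as to signals in the living muscle.

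Upstream sequences are shown for genes on which the groups below turn, so that the genes that moved can be set beside motifs of the factors named with them. RefSeq promoter sequences (GRCm38.p6) were matched by symbol for 11762 of 17486 gene symbols. The stretches printed below come from the 250 bases before a gene's start. The counts of promoters also took in a short stretch after the start. Both strands were searched for the heat shock element, the cAMP response element CRE (TGACGTCA), the AP-1 site (TGANTCA), the E-box CAGCTG, the interferon element, the CArG box of serum response factor and the NF-kB site. Capitals mark the matches, and sequences are given 5′ to 3′ on the gene's strand. Hspd1 and Hspe1, which encode the mitochondrial chaperone and its partner, start from 1 shared stretch on opposite strands and the capitals in it hold 2 overlapping heat shock elements.
Hspd1 (chr1:55088014-55088116, minus strand): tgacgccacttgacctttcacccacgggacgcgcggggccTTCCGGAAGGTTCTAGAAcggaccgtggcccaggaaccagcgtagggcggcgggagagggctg
Maff (CRE, chr15:79347446-79347519, plus strand): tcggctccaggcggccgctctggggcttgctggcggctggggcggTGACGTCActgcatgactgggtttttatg
Btg2 (CRE, chr1:134079269-134079366, minus strand): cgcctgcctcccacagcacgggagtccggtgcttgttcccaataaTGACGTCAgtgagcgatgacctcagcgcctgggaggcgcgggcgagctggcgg
Ppp1r15a (CRE, chr7:45526269-45526325, minus strand): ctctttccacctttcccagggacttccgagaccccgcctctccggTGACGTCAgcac
Egr2 (CArG box, chr10:67537752-67537851, plus strand): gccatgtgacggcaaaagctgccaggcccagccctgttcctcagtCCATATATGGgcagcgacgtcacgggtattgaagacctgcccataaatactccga
Dusp5 (2 CArG boxes, chr19:53529028-53529127, plus strand): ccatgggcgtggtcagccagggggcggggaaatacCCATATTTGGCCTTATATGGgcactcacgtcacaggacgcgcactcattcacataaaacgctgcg
Cxcl10 (interferon element, chr5:92349048-92349139, minus strand): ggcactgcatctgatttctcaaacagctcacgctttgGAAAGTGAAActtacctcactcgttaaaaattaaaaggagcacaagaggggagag
Myl9 (CArG box, chr2:156775258-156775357, plus strand): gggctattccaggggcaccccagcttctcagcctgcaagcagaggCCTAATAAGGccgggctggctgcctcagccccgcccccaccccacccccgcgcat
Chrna1 (E-box, chr2:73580339-73580427, minus strand, the first 3 capitals being the end of a second match): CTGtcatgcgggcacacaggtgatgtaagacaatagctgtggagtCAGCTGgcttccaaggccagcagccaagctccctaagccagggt

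Promoters were counted by gene symbol, and a symbol counted once if any of its promoters held a match. A CRE lay in 3.31% of the 11762 and in 3 of 26 immediate early promoters (11.5%). It also lay in 16 of 209 promoters of genes whose DEN effects had opposite signs in fibers and TA (7.66%). A heat shock element lay in 0.612% of all promoters and in 4 of 21 heat shock promoters (19%). Hspd1 and Hspe1, which share 1 stretch, were each counted among these 4. CArG boxes were found in 1.6% of all promoters, in 3 of 26 immediate early promoters (11.5%) and in 1 of 11 smooth muscle promoters (9.09%). The interferon element lay in 3.82% of all promoters and in 14 of 27 promoters of interferon response genes (51.9%), and the E-box in 18.7% of all promoters. The NF-kB site lay in 9.47% of all promoters, in 7 of 26 immediate early promoters (26.9%) and in 6 of 21 heat shock promoters (28.6%). It lay in 20 of 209 promoters of genes with opposite DEN effects (9.57%), in 1 of 25 proteasome promoters (4%) and in 0 of 11 smooth muscle promoters. AP-1 sites were found in 6.65% of all promoters, in 42 of 333 promoters of genes with an interaction of -1 or below (12.6%), and in 27 of 242 with an interaction of 1 or above (11.2%). They lay in 11 of 209 promoters of genes with opposite DEN effects (5.26%) and in 1 of 26 immediate early promoters (3.85%). These shares are descriptions of letters in a short window and were not tested.

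Libraries held between 47570214 and 62297405 counts. Levels below are RPM, read counts relative to the library total after scaling by TMM factors (trimmed mean of M values, a scaling that sets the bulk of genes to no change). The markers of skeletal muscle Acta1, Ckm, Myh4, Ttn and Des were among the abundant genes in every library, with Ttn between 5060 and 7130 RPM in DEN fibers, 8010 and 11100 RPM in sham fibers, 4510 and 5100 RPM in DEN TA, and 7010 and 8550 RPM in sham TA. TMM factors were 1.16 to 1.29 in DEN fibers, 0.788 to 0.899 in sham fibers, 1.12 to 1.15 in DEN TA and 0.834 to 0.866 in sham TA. Scaling to total counts alone moved the median DEN effect up by 0.49 log2 units in fibers and by 0.42 in TA, but the median interaction by 0.07. With TMM scaling 5067 genes were higher and 5100 lower after DEN in fibers, and with total counts alone 10874 and 1731. In TA the same counts were 5626 and 5038 with TMM scaling and 9908 and 2131 with total counts alone. The sign of a DEN effect near 0 thus depended on the scaling. Several libraries stood apart in genes of non-muscle cells. Sham fiber replicate 3 had a summed level of 2198 RPM for tendon cell genes and 4241 RPM for collagens, against 211.5 to 570.8 RPM and 1382 to 1913 RPM in the other sham fiber libraries. DEN fiber replicate 4 had 1846 RPM of smooth muscle genes and DEN fiber replicate 2 had 547.2 RPM, with 1091 and 772.5 RPM in the others. In bulk samples, fewer cells of a type and less RNA per cell cannot be told apart.

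The interaction passed in 3307 of 17497 genes tested (18.9%) at an adjusted p below 0.05, by the quasi-likelihood test of edgeR with Benjamini-Hochberg adjustment. It was positive in 1241 genes (7.09%) and negative in 2066 (11.8%), and the median over all genes tested was -0.03. With total counts alone the split was 1488 positive and 1173 negative, with upper quartile factors 1492 and 1686, and without the filter on low counts 1312 and 1227, so the excess of negative interactions did not hold under every setting. With a floor of 1 RPM in the mean of a group the split was 1509 positive and 1633 negative. Leaving out 1 library gave 2475 to 3769 calls, and no shared call turned its sign (0 in every setting). Negative calls fell by more than 1.5 times without TA DEN replicate 1 (1339) or 3 (1317), or without TA sham replicate 1 (1249), 2 (1244) or 3 (1333). An interaction of at least 1 log2 unit was found in 878 genes (5.02%), of which 520 were negative and 358 positive. Among protein-coding genes 20.4% passed, among long noncoding RNAs 13.6% and among processed pseudogenes 12%. The share of calls was 8.3% among genes with a mean under 1 RPM and 31.8% among genes at 100 RPM or more, and rose with the level between these bounds.

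The DEN effects behind these interactions took several forms. DEN changed 10167 genes in fibers (58.1%) and 10664 in TA (60.9%) in the same fit. Of the 3307 genes, 1003 changed in the same direction in both preparations by more in TA, 315 in the same direction by more in fibers, 930 in TA alone, 734 in fibers alone, and 31 in neither by these tests. In 294 genes (1.68% of those tested) both DEN effects passed with opposite signs, and 208 of these were lower after DEN in fibers and higher after DEN in TA. Opposite signs were kept by 138 of the 294 with total counts alone, and 55 still passed in both preparations. The plot of DEN effects in both preparations shows these genes off the diagonal.

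**Figure D1:**
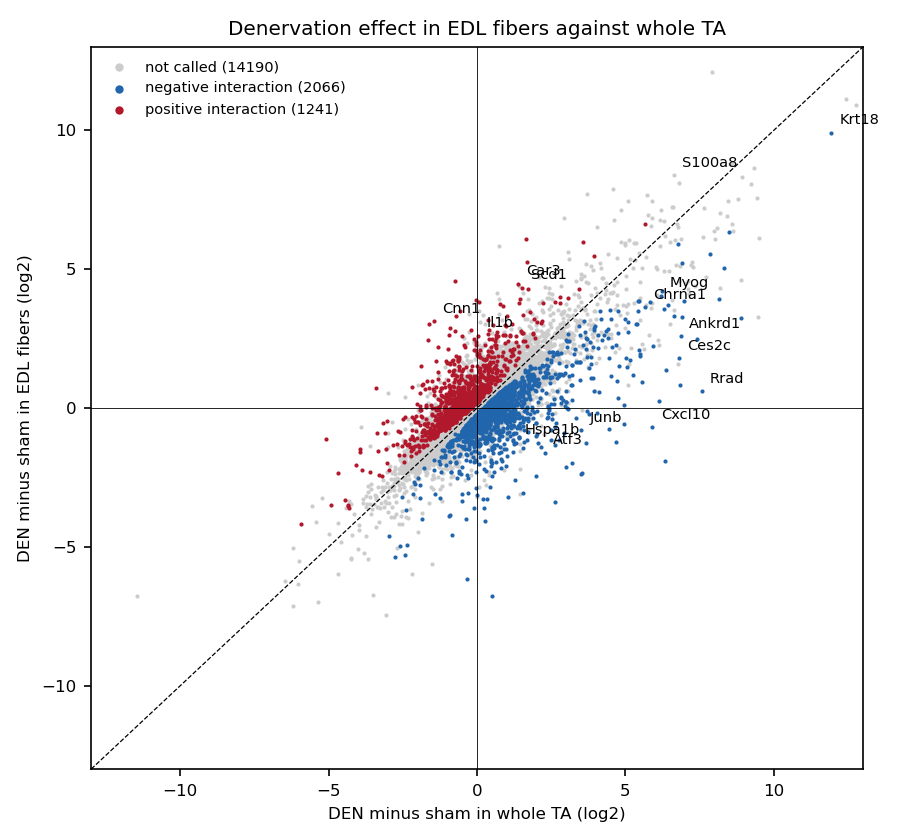
Log2 DEN effect (DEN minus sham, TMM scaling) in whole TA on the horizontal axis and in EDL fibers on the vertical axis, 1 point per gene over 17497 genes tested. Genes with a called interaction (1241 positive, 2066 negative) lie above or below the diagonal, on which both effects are equal.

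The same genes can be read as a difference between preparations that is not the same after both surgeries. Fibers and TA differed in 9239 genes in DEN libraries (52.8%) and in 9158 genes in sham libraries (52.3%). These differences share libraries with the interaction and are given as a description. Among the 520 genes with an interaction of -1 or below, 466 were higher in fibers than in TA in sham libraries and 6 were lower. The median of the fiber minus TA difference over these 520 genes was 0.19 in DEN and 2.03 in sham. The 358 genes with an interaction of 1 or above were of the opposite kind, with 197 lower and 31 higher in fibers than in TA in sham libraries, and medians of 0.77 in DEN and -0.82 in sham.

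Immediate early genes had the lowest median interaction of the gene lists examined. Of 34 tested, 21 had a negative interaction and none a positive one, with a median of -1.64 against -0.03 over all genes. In fibers 25 of the 34 were lower after DEN and 1 was higher (20 and 3 with total counts alone), whereas in TA 16 were higher after DEN and 4 lower (21 and 2 with total counts alone). Their summed level was 5690 to 6250 RPM in DEN fibers, 12500 to 15000 RPM in sham fibers, 963 to 1110 RPM in DEN TA and 587 to 819 RPM in sham TA. No library of fibers overlapped with any library of TA in that sum. These transcripts thus went with the preparation after both surgeries, and the part of this in the other interactions was not tested.

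Junb (chr8:84974484-84978718), a subunit of the AP-1 transcription factor, gave the largest interaction among genes with opposite DEN effects and a mean of at least 10 RPM in the highest group. Its level was 735, 850, 699 and 695 RPM in DEN fibers, 1300, 1550, 1190 and 1160 RPM in sham fibers, 112, 92.4, 108 and 151 RPM in DEN TA, and 13.6, 11, 7.2 and 8.92 RPM in sham TA. The 4 groups did not overlap, and DEN libraries were low in fibers and high in TA. The interaction was -4.31 ± 0.25 (SE, edgeR adjusted p = 5.2e-08), from a DEN effect of -0.80 in fibers and 3.51 in TA. The fall in fibers did not pass with total counts alone (-0.31, adjusted p = 0.11), but the interaction did (-4.24). Jun, its partner subunit, was at 363, 360, 453 and 349 RPM in DEN fibers, 1040, 779, 1200 and 1120 RPM in sham fibers, 269, 314, 308 and 261 RPM in DEN TA, and 135, 92.6, 75.6 and 90.9 RPM in sham TA. Fibers lay above TA after both surgeries without overlap, by less after DEN than after sham surgery. Its interaction was -2.99 ± 0.23 (edgeR adjusted p = 5.7e-07), with DEN effects of -1.44 in fibers and 1.55 in TA that kept their signs and their calls with total counts alone.

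Atf3, a transcription factor of the stress response, was at 229, 231, 230 and 324 RPM in DEN fibers, 891, 700, 802 and 693 RPM in sham fibers, 22.6, 12.5, 24.8 and 27.5 RPM in DEN TA, and 7.95, 2.94, 3.79 and 3.28 RPM in sham TA. Its groups did not overlap, and its interaction was -3.88 ± 0.38 (edgeR adjusted p = 6.4e-06). The zinc finger factor Egr3 had 8.35, 10.1, 9.91 and 6.94 RPM in DEN fibers, 13.9, 26.7, 23.3 and 14.3 RPM in sham fibers, 3.86, 6.06, 4.74 and 5.15 RPM in DEN TA, and 0.895, 0.697, 0.539 and 0.792 RPM in sham TA, with an interaction of -3.91 ± 0.33 (edgeR adjusted p = 1.3e-06). Members with a promoter printed above lay on the same side. Btg2, an antiproliferative gene, had an interaction of -2.48, Egr2 one of -2.78, Maff, a small Maf factor, one of -2.56, and the phosphatase gene Dusp5 one of -2.45, of which Dusp5 did not change with DEN in fibers by the test (-0.01, edgeR adjusted p = 0.97, but 0.49 and called with total counts alone, adjusted p = 0.033). Ccn1, a matricellular protein, had an interaction of -2.59. Fosl1, an AP-1 subunit, was at 4.68 to 7.48 RPM in DEN fibers, 5.14 to 15.2 RPM in sham fibers, 1.89 to 2.43 RPM in DEN TA and 0.0192 to 0.146 RPM in sham TA, so that its interaction of -5.56 ± 0.56 (edgeR adjusted p = 8e-06) rested on TA libraries that were almost without counts after sham surgery.

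Not every immediate early gene had a called interaction. The levels of Nr4a1 and Fos were nonetheless higher in every fiber library than in any TA library. Nr4a1, an orphan nuclear receptor, was at 300, 366, 317 and 382 RPM in DEN fibers and 1030, 1350, 1050 and 1120 RPM in sham fibers, and at 52, 40.3, 58.7 and 62.4 RPM in DEN TA and 182, 158, 203 and 175 RPM in sham TA. Nr4a1 was lower after DEN in both, and its interaction was 0.01 ± 0.18 (edgeR adjusted p = 0.98) on the log2 scale. On the linear scale it was -671 RPM. Fos was at 542 to 690 RPM in DEN fibers and 1740 to 1950 RPM in sham fibers, but at 3.06 to 7.75 RPM in DEN TA and 4.83 to 28.2 RPM in sham TA, and its interaction of -0.71 ± 0.62 did not pass (edgeR adjusted p = 0.46). Egr1 likewise did not pass (-1.62 ± 0.61, edgeR adjusted p = 0.074), although its DEN effect in fibers was -1.69. A miss of the threshold does not show that the responses were alike, and the SE of these 2 genes allowed differences of more than 1 log2 unit.

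**Figure D2:**
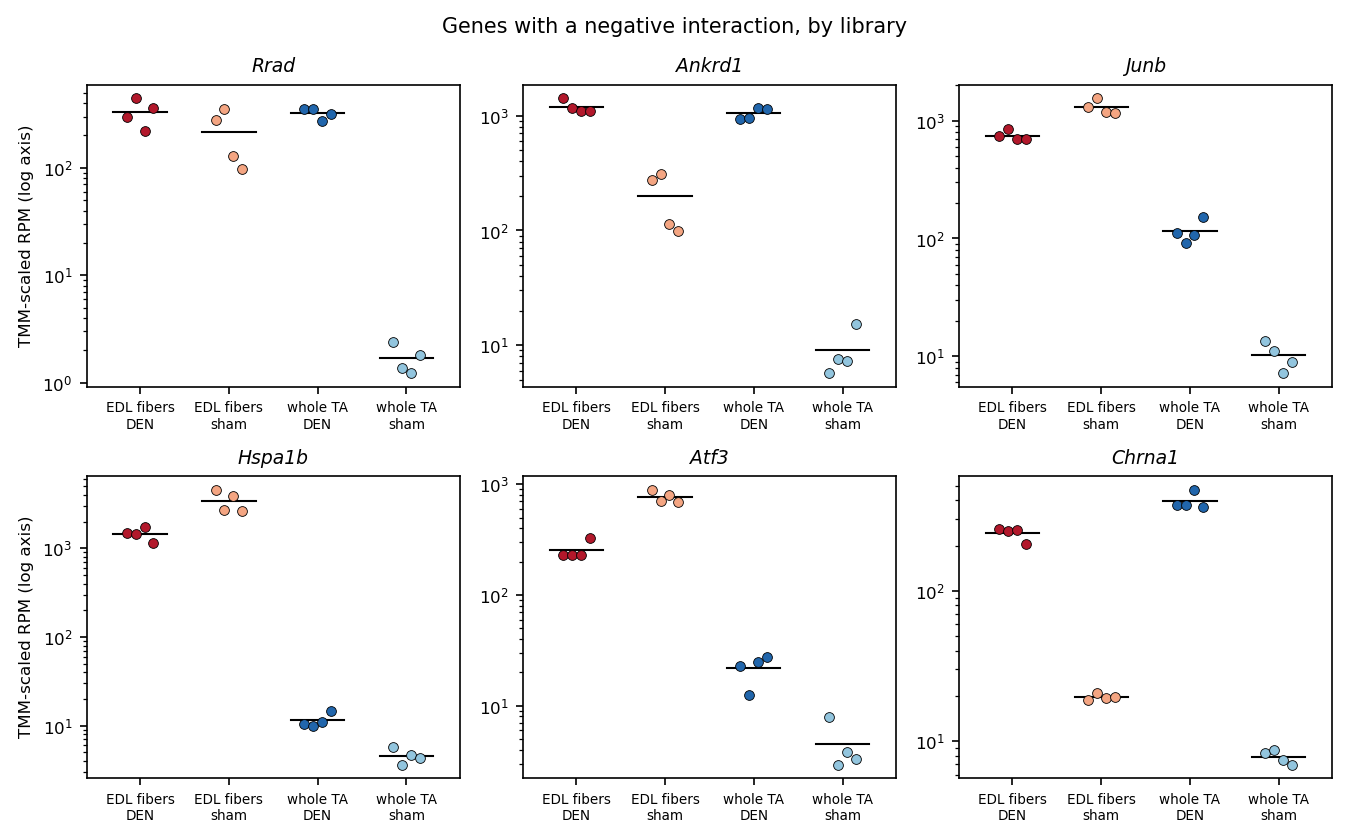
TMM-scaled RPM (log axis) of 6 genes with a negative interaction in each library, with DEN left of sham within EDL fibers and then within whole TA, and bars at group means. Junb and Atf3 were lower after DEN in fibers and higher after DEN in whole TA, whereas Rrad, Ankrd1 and Chrna1 rose after DEN in TA and had a smaller DEN effect in fibers.

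Other genes with opposite DEN effects belonged to several processes. Otud1, a deubiquitinating enzyme, was at 136, 163, 141 and 115 RPM in DEN fibers and 1130, 771, 735 and 698 RPM in sham fibers, and at 58.8, 27.6, 51.3 and 58.8 RPM in DEN TA and 47.3, 9.48, 13.1 and 10.1 RPM in sham TA. TA sham replicate 1 lay within the range of the DEN TA libraries, and the interaction was -3.88 ± 0.58 (edgeR adjusted p = 0.00032). Ciart, a repressor of the circadian clock, was at 15.8 to 22.4 RPM in DEN fibers, 29.9 to 71.1 RPM in sham fibers, 4.52 to 6.97 RPM in DEN TA and 0.924 to 2.36 RPM in sham TA (interaction -3.55 ± 0.42, edgeR adjusted p = 3.2e-05). Impact, a regulator of the amino acid sensor Gcn2, was at 20.8 to 23.7 RPM in DEN fibers and 65.1 to 162 RPM in sham fibers, and at 22.3 to 26.2 RPM in DEN TA and 14.3 to 18.3 RPM in sham TA. The DEN libraries of Impact overlapped between preparations, and its interaction was -2.88 ± 0.28 (edgeR adjusted p = 6.4e-06). Csrnp1, a nuclear protein induced by axin, had an interaction of -2.86 ± 0.37 (edgeR adjusted p = 8.1e-05). Junb apart, all of the 8 genes with opposite effects named by the rule (Junb, Egr3, Otud1, Atf3, Ciart, Jun, Impact and Csrnp1) kept both calls and both signs with total counts alone.

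Heat shock genes formed a second group with negative interactions, in 20 of 28 tested with none positive (median -0.57). In TA 22 of the 28 were higher after DEN and 2 lower (26 and 1 with total counts alone), and in fibers 7 were higher and 16 lower, which turned to 16 higher and 8 lower with total counts alone. Their summed level was 13500 to 14000 RPM in DEN fibers, 15400 to 21500 RPM in sham fibers, 10200 to 11200 RPM in DEN TA and 5120 to 5530 RPM in sham TA, and the ranges of the 4 groups did not overlap. Hspa1b, the inducible chaperone of the HSP70 family, had 1480, 1450, 1750 and 1160 RPM in DEN fibers, 4580, 2720, 3900 and 2620 RPM in sham fibers, 10.5, 9.96, 10.9 and 14.5 RPM in DEN TA, and 5.72, 3.63, 4.66 and 4.27 RPM in sham TA. Every fiber library lay far above every TA library, and DEN and sham did not overlap in either preparation. Its interaction was -2.56 ± 0.27 (edgeR adjusted p = 1.4e-05), and its reads cannot be separated with certainty from those of the near-identical Hspa1a (-2.52).

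The cytosolic chaperone Hsp90aa1 was at 292, 277, 314 and 213 RPM in DEN fibers, 683, 459, 677 and 498 RPM in sham fibers, 94.4, 89.4, 94.4 and 95 RPM in DEN TA, and 36.9, 30.6, 35.9 and 35.6 RPM in sham TA. The groups did not overlap (interaction -2.50 ± 0.18, edgeR adjusted p = 4.9e-07), and both DEN effects kept their sign and call with total counts alone (-0.57 in fibers and 1.85 in TA). Its constitutive paralog Hsp90ab1 had an interaction of -0.94 ± 0.09 with no DEN effect called in fibers (0.09, edgeR adjusted p = 0.21, and 0.59 and called with total counts alone). The small heat shock protein genes Hspb8 (interaction -1.71) and Cryab (-1.14) rose after DEN in TA by more than in fibers. Hspb1, of the same class, had an interaction of -1.60 and was among the genes with opposite DEN effects. Its effect in fibers was not called with total counts alone (0.15, edgeR adjusted p = 0.27). The co-chaperones Dnajb1 (-2.01), Dnaja1 (-1.67), Bag3 (-1.27) and Hsph1 (-1.25) lay on the negative side as well. Hspd1 and Hspe1, whose shared upstream stretch holds the heat shock elements printed above, had interactions of -0.62 ± 0.10 and -0.88 ± 0.11 (edgeR adjusted p = 0.00037 and 4e-05). Hsf1, which encodes the heat shock factor itself, did not pass (-0.16 ± 0.06, edgeR adjusted p = 0.065).

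Of 34 antioxidant and metallothionein genes 13 had a negative and 1 a positive interaction (median -0.29). The metal-binding gene Mt2 was at 210, 236, 173 and 190 RPM in DEN fibers, 248, 277, 263 and 141 RPM in sham fibers, 25.6, 20.5, 59.8 and 84.2 RPM in DEN TA, and 4.1, 1.32, 2.83 and 3.03 RPM in sham TA. Fiber groups overlapped and TA groups did not. The interaction was -4.25 ± 0.55 (edgeR adjusted p = 8.7e-05), and that of Mt1 was -3.21 ± 0.47. Heme oxygenase (Hmox1) had an interaction of -2.14 ± 0.27 (edgeR adjusted p = 6.2e-05), with 52.5 to 85.9 RPM in DEN fibers, 95.4 to 176 RPM in sham fibers, 12 to 14.9 RPM in DEN TA, and 4.83 to 6.97 RPM in sham TA. Nqo1, a target of the same redox factor Nfe2l2, was lower after DEN in fibers (-0.67) and TA (-0.61), though neither passed with total counts alone, and its interaction was -0.05 ± 0.13 (edgeR adjusted p = 0.82). Of 26 p53 targets 11 were negative and 1 positive, but only 7 were negative with total counts alone, or without sham fiber replicate 1, TA DEN replicate 4, or TA sham replicate 1 or 2. The cell cycle inhibitor Cdkn1a, a member of that list, was at 271, 216, 249 and 222 RPM in DEN fibers, 77.6, 114, 92.3 and 56.7 RPM in sham fibers, 515, 526, 455 and 464 RPM in DEN TA, and 12.3, 10.3, 20.9 and 14.9 RPM in sham TA (interaction -3.57 ± 0.28, edgeR adjusted p = 8.1e-07).

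Among genes known to answer to loss of the nerve, several rose after DEN in both preparations and by more in TA. Of 21 denervation-responsive regulators 12 had a negative interaction and none a positive one (median -0.99), while 12 rose and 6 fell in fibers and 13 rose and 5 fell in TA (13 and 3, and 15 and 3, with total counts alone). Myogenin (Myog), the myogenic factor that drives the denervation program, had 69.1, 55, 88.5 and 49.4 RPM in DEN fibers, 4.09, 3.65, 4.03 and 4.04 RPM in sham fibers, 111, 117, 139 and 132 RPM in DEN TA, and 2.06, 1.34, 1.58 and 1.74 RPM in sham TA. DEN libraries were above sham libraries in both preparations, and TA spanned the wider range at both ends. The interaction was -2.15 ± 0.24 (edgeR adjusted p = 1.9e-05), from DEN effects of 4.05 in fibers and 6.20 in TA. Runx1, a transcription factor induced by denervation, was at 81.9, 89, 98.1 and 74.5 RPM in DEN fibers, 20.2, 20.8, 19 and 12.7 RPM in sham fibers, 109, 125, 127 and 104 RPM in DEN TA, and 2.56, 1.32, 2.08 and 1.58 RPM in sham TA. Its interaction was -3.69 ± 0.24 (edgeR adjusted p = 1.4e-07). The growth arrest gene Gadd45a had an interaction of -3.38 ± 0.28, the histone deacetylase Hdac4 one of -1.02 ± 0.12, Sox11 one of -2.35 and Myf6 one of -1.40 ± 0.11.

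Myod1, the factor of activated myoblasts, was at 41.5, 46.9, 56 and 22.8 RPM in DEN fibers, 80, 73.9, 52.2 and 39.7 RPM in sham fibers, 140, 176, 186 and 125 RPM in DEN TA, and 55.3, 51.5, 70.4 and 50.1 RPM in sham TA. Fiber groups overlapped and TA groups did not. The interaction was -2.02 ± 0.35 (edgeR adjusted p = 0.00092), with a DEN effect of 1.46 in TA, and -0.55 in fibers that did not pass (edgeR adjusted p = 0.063). Ankrd1, an ankyrin repeat protein that binds titin, had 1420, 1170, 1110 and 1110 RPM in DEN fibers, 274, 311, 113 and 99.1 RPM in sham fibers, 944, 956, 1170 and 1150 RPM in DEN TA, and 5.72, 7.64, 7.27 and 15.4 RPM in sham TA. DEN libraries of both preparations overlapped and sham libraries did not (interaction -4.27 ± 0.49, edgeR adjusted p = 2.6e-05).

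The largest negative interaction among genes with a mean of at least 10 RPM in the highest group was of the same kind. Rrad (chr8:104628070-104631327), a Ras-related GTPase that binds subunits of voltage-gated calcium channels, was at 294, 444, 218 and 361 RPM in DEN fibers, 280, 350, 129 and 98.2 RPM in sham fibers, 356, 353, 271 and 315 RPM in DEN TA, and 2.39, 1.37, 1.23 and 1.82 RPM in sham TA. Only sham TA stood apart from the other 3 groups. The interaction was -6.95 ± 0.52 (edgeR adjusted p = 5.5e-07), with a DEN effect of 7.57 in TA. The effect of 0.62 in fibers did not pass with TMM scaling (edgeR adjusted p = 0.10) but did with total counts alone (1.11, adjusted p = 0.0041). Cxcl10, a chemokine induced by interferon whose upstream stretch is printed above, had 12.9, 14.5, 11.5 and 17.6 RPM in DEN fibers, 41.9, 14, 25.6 and 9.86 RPM in sham fibers, 4.18, 4.19, 3.41 and 5.06 RPM in DEN TA, and 0.104, 0.0249, 0.0385 and 0.0966 RPM in sham TA (interaction -6.60 ± 0.71, edgeR adjusted p = 1.5e-05). Of 36 interferon response genes in a list of their own, 0 had a called interaction by edgeR, DESeq2 or limma voom, and 0 had an unadjusted p under 0.05 (median -0.14). Their summed level was 640.5 RPM in DEN fiber replicate 4 and 602.8 RPM in TA DEN replicate 4, against at most 268.7 and 183.1 RPM in the other libraries of these groups.

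Ces2c, a carboxylesterase of a multigene family, was at 12.6, 12.1, 9.65 and 10.3 RPM in DEN fibers, 3.48, 3.15, 2.9 and 3.26 RPM in sham fibers, 28.7, 26.4, 26.8 and 23.6 RPM in DEN TA, and 0.354, 0.174, 0.192 and 0.212 RPM in sham TA. Its groups did not overlap and the order of the preparations turned with surgery (interaction -5.00 ± 0.20, edgeR adjusted p = 5.6e-10). Gdf15, a stress-induced cytokine, had 4.96 to 8.33 RPM in DEN fibers, 2.12 to 3.44 RPM in sham fibers, 1.88 to 2.66 RPM in DEN TA and 0.0192 to 0.104 RPM in sham TA (interaction -4.06 ± 0.43, edgeR adjusted p = 1.4e-05). Its value rested on sham TA libraries that were almost without counts, and the linear interaction was positive (1.36 RPM). Timp1, an inhibitor of matrix proteases, had an interaction of -3.74 ± 0.62 and Id2, an inhibitor of basic helix-loop-helix factors, one of -3.54 ± 0.23.

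Subunits of the acetylcholine receptor were split. The alpha subunit gene Chrna1 (chr2:73563215-73580338) had 259, 250, 256 and 206 RPM in DEN fibers, 18.9, 20.8, 19.3 and 19.7 RPM in sham fibers, 373, 373, 471 and 359 RPM in DEN TA, and 8.3, 8.78, 7.45 and 6.99 RPM in sham TA. Fibers lay below TA after DEN and above it after sham, without overlap. The interaction was -2.02 ± 0.14 (edgeR adjusted p = 2.6e-07), and Chrnd, the delta subunit, gave the same value (-2.02 ± 0.19). Ncam1, an adhesion molecule of fibers without a nerve, had an interaction of -0.62 ± 0.17 (edgeR adjusted p = 0.017). The fetal subunit Chrng had DEN effects of 7.57 in fibers and 9.42 in TA, but sham levels of at most 0.402 RPM in fibers and 0.166 RPM in TA, and its interaction of -1.84 ± 0.79 did not pass (edgeR adjusted p = 0.11). The beta subunit Chrnb1 (-0.32 ± 0.14) and the adult subunit Chrne (-0.31 ± 0.19) did not pass (edgeR adjusted p = 0.12 and 0.28). The receptor tyrosine kinase Musk, which clusters the receptor, rose by 2.91 in fibers and by 2.92 in TA, with an interaction of -0.01 ± 0.20 (edgeR adjusted p = 0.99). Agrin (Agrn), the clustering signal, had a positive interaction of 0.82 ± 0.13 (edgeR adjusted p = 0.00039). Of 21 receptor and postsynaptic genes tested, 4 were negative and 2 positive, beside 11.8% negative and 7.09% positive over all genes tested.

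**Figure D3:**
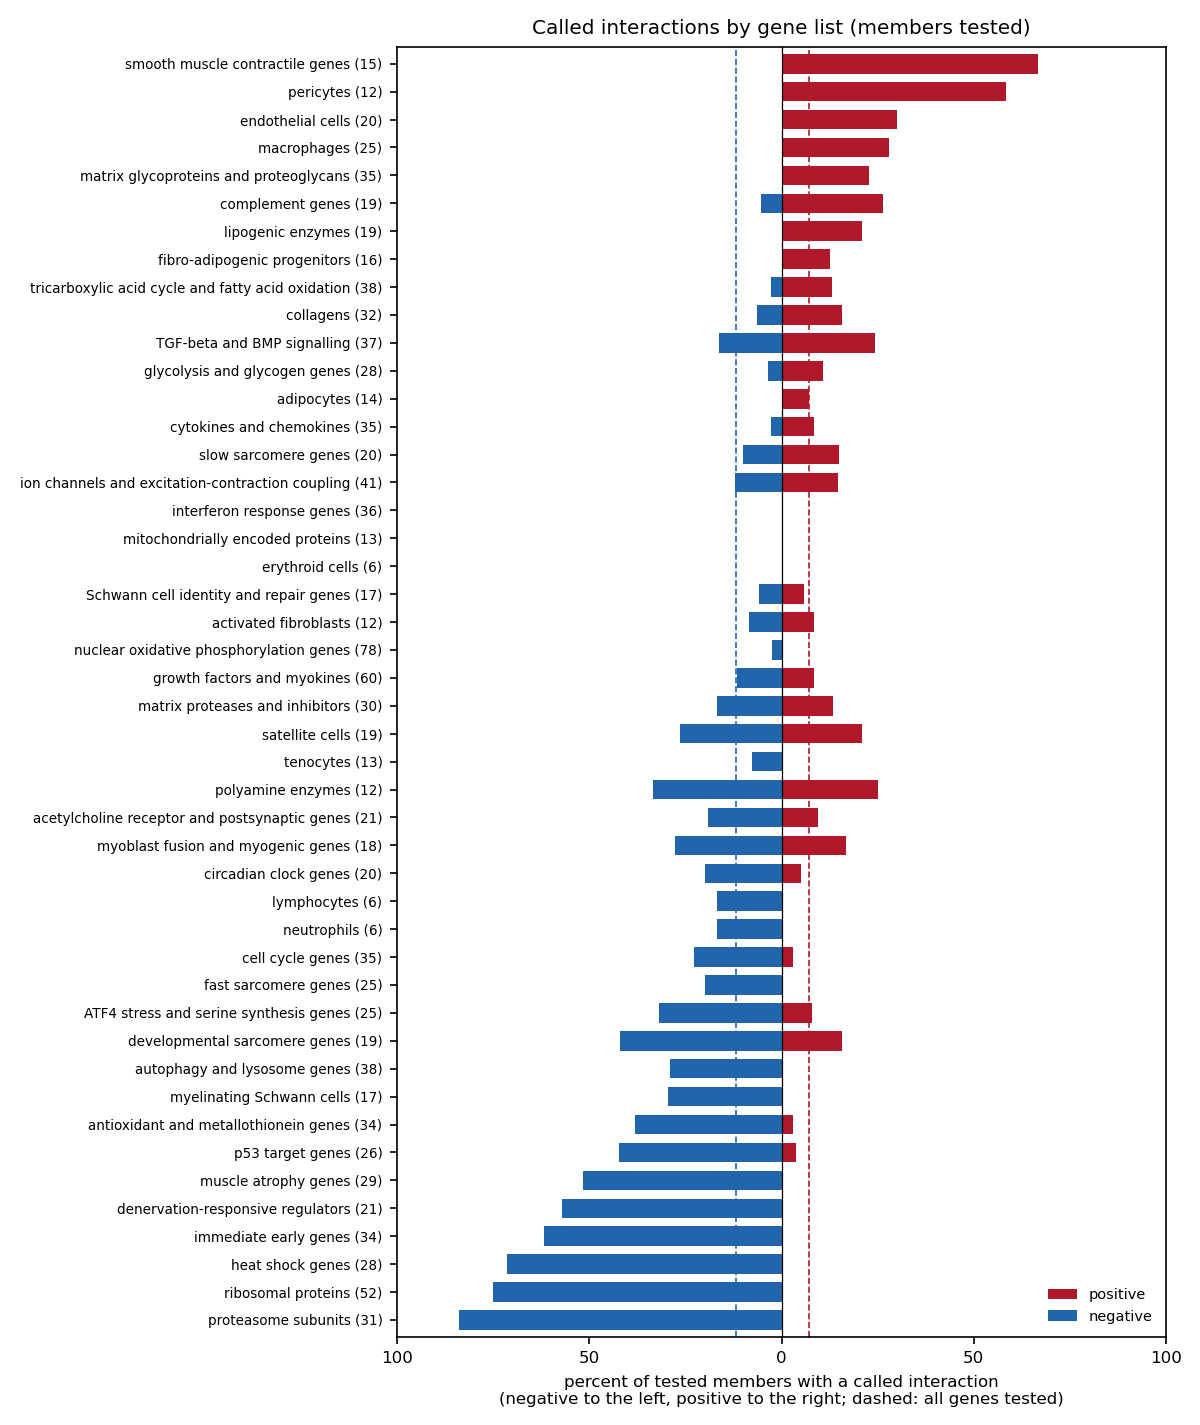
Share of tested members of each gene list with a called interaction, positive or negative (percent of members), beside the share over all 17497 genes tested (7.09% positive, 11.8% negative). Immediate early genes, heat shock genes and proteasome subunits reached 21 of 34, 20 of 28 and 26 of 31 on the negative side, and smooth muscle contractile genes 10 of 15 on the positive side.

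Of 31 proteasome subunits 26 were negative and none positive, with a median of -0.33. In TA 30 of the 31 rose after DEN (31 with total counts alone), and 21 rose and 1 fell in fibers (31 and 0 with total counts alone). Their summed level was 3780 to 4230 RPM in DEN fibers, 3270 to 3620 RPM in sham fibers, 5200 to 5270 RPM in DEN TA and 3450 to 3660 RPM in sham TA. Sham groups overlapped and DEN groups did not. Psmb5, a catalytic subunit, was at 109, 106, 97.2 and 101 RPM in DEN fibers, 73.7, 63.4, 67.3 and 72.5 RPM in sham fibers, 150, 148, 157 and 150 RPM in DEN TA, and 70.8, 70.2, 73.5 and 70.7 RPM in sham TA (interaction -0.51 ± 0.07, edgeR adjusted p = 0.00024). The negative count of the list fell to 17 without TA sham replicate 1 or without the filter on low counts, and to 20 with total counts alone.

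Of 52 ribosomal protein genes 39 were negative (median -0.26), but this count fell to 6 with total counts alone, to 16 with upper quartile factors and to between 7 and 24 when 1 library was left out, for any but DEN fiber replicate 1 or sham fiber replicate 3. Rpl3, the member farthest from 0, had -0.78 ± 0.12 (edgeR adjusted p = 0.00046). Of 29 muscle atrophy genes 15 were negative and none positive (11 with total counts alone). The ubiquitin ligase gene Trim63, known as MuRF1, was at 291, 284, 239 and 268 RPM in DEN fibers, 537, 493, 306 and 344 RPM in sham fibers, 364, 368, 316 and 412 RPM in DEN TA, and 282, 221, 225 and 211 RPM in sham TA. DEN lay below sham in fibers and above it in TA, without overlap in either (interaction -1.27 ± 0.21, edgeR adjusted p = 0.00082). Its DEN effect in fibers, -0.63, was -0.13 with total counts alone (adjusted p = 0.40). The second ligase of atrophy, Fbxo32, did not pass (-0.33 ± 0.14, edgeR adjusted p = 0.12). Fbxo30, a ligase of the same response, had an interaction of -2.04, and the ubiquitin gene Ubb had -0.85. Of 38 autophagy and lysosome genes 11 were negative and none positive, or 7 with total counts alone, among them the receptor Sqstm1 (-0.77 ± 0.08) and Gabarapl1 (-0.51 ± 0.13).

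Myelin genes were lower after DEN in 16 of 17 members in fibers and in 14 of 17 in TA, and 5 of the 17 had a negative interaction. Their summed level was 45.3 to 72.3 RPM in DEN fibers, 201 to 323 RPM in sham fibers, 28 to 34 RPM in DEN TA and 65.2 to 80.1 RPM in sham TA. The list holds Egr2, named above among immediate early genes, which was among the 5 and had opposite DEN effects. Egr2 made up 16.4 to 21.7 RPM of the sum in DEN fibers and 36.2 to 68.3 RPM in sham fibers. In TA it was at 0.586 to 1.44 RPM after DEN and 0.289 to 0.583 RPM after sham surgery. Mbp, the myelin basic protein gene, which is also expressed outside myelin, was at 3.94, 4.41, 4.51 and 4.04 RPM in DEN fibers and 27.3, 38.9, 38.6 and 20.8 RPM in sham fibers, against 9.75, 12.9, 9.03 and 9.06 RPM in DEN TA and 10.1, 10.3, 10.6 and 10.9 RPM in sham TA. It fell after DEN in fibers, and the effect in TA did not pass (-0.04, interaction -2.85 ± 0.24, edgeR adjusted p = 1.2e-06). Mag, a myelin adhesion molecule, had an interaction of -2.87 ± 0.52 (edgeR adjusted p = 0.0015). Prx and Pmp22, structural genes of the myelin sheath, fell in both with interactions of -0.38 ± 0.24 and -0.33 ± 0.26 that did not pass (edgeR adjusted p = 0.29 and 0.39).

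**Figure D4:**
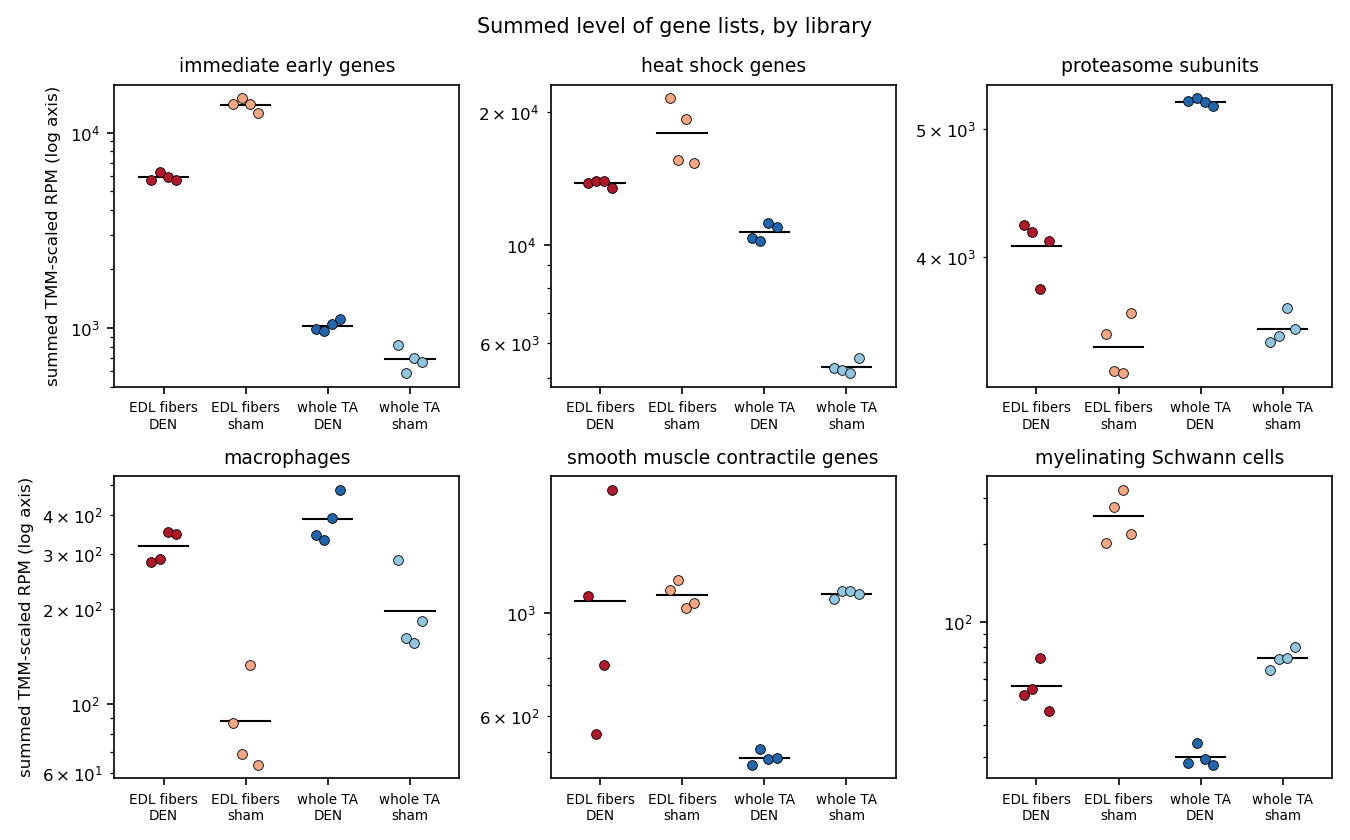
Summed TMM-scaled RPM (log axis) of 6 gene lists in each library, with DEN left of sham within EDL fibers and then within whole TA, and bars at group means. Immediate early genes lay at 5690 to 15000 RPM in fiber libraries and 587 to 1110 RPM in TA libraries, and smooth muscle contractile genes ranged from 547 to 1850 RPM among DEN fiber libraries.

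Smooth muscle contractile genes were on the positive side, with 10 of 15 members called and none negative (median 1.83, 7.09% of all genes positive). In TA 4 of the 15 fell after DEN and none rose (2 and none with total counts alone), and in fibers 10 rose and 1 fell (12 and 1). Myh11 (chr16:14194535-14291372), the smooth muscle myosin heavy chain, was at 208, 30, 121 and 435 RPM in DEN fibers, 76.6, 53.3, 73.9 and 61.6 RPM in sham fibers, 17.2, 18.7, 16.4 and 18 RPM in DEN TA, and 34.3, 31.3, 33.9 and 34.1 RPM in sham TA. DEN fiber replicate 2 was below all sham fibers and the other 3 above them, whereas TA libraries were tight and did not overlap. The interaction was 2.51 ± 0.67 (edgeR adjusted p = 0.016). Calponin (Cnn1), an actin-binding protein of smooth muscle, had 15, 0.538, 9.04 and 25.5 RPM in DEN fibers, 1.68, 0.798, 1.53 and 1.76 RPM in sham fibers, 0.301, 0.279, 0.497 and 0.143 RPM in DEN TA, and 0.853, 0.547, 0.943 and 0.985 RPM in sham TA, with the largest positive interaction of the genes above the floor (4.57 ± 1.09, edgeR adjusted p = 0.0089). Tagln (2.55), Acta2 (2.14), Myl9 (2.04), Itga8 (2.34) and Mylk (1.52) followed, and in each DEN fiber replicate 2 was the lowest DEN fiber library. The count of 10 fell to 2 with limma voom and to 6 with a replicate block within surgery, and Myh11 itself missed the threshold in both (1.97, adjusted p = 0.073, with limma voom and 2.02, adjusted p = 0.056, with the edgeR block). Cnn1 (3.73, adjusted p = 0.34), Tagln, Itga8 and Acta2 also lost their calls with limma voom. Acta2 also missed the threshold without DEN fiber replicate 4 (1.57). In the sum over the list, the DEN fiber libraries, at 547.2 to 1846 RPM, spanned the sham fiber range of 1024 to 1178 RPM. Much of that sum was Synpo2, an actin-binding gene that striated muscle also expresses, at 198 to 361 RPM in DEN fibers, 581 to 862 RPM in sham fibers, 262 to 286 RPM in DEN TA and 758 to 828 RPM in sham TA. Its interaction did not pass (0.14, edgeR adjusted p = 0.68), so the sum does not describe the other members.

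Genes of other vessel cells lay on the same side. Of 12 pericyte genes 7 were positive and none negative (median 0.76), and all 12 were lower after DEN in TA (3 with total counts alone). In fibers 2 rose and 1 fell (8 and 0 with total counts alone). The count was 4 without DEN fiber replicate 3 and 11 without sham fiber replicate 3. Cspg4, the proteoglycan NG2 of pericytes, was at 20.1, 19.2, 20.8 and 31.8 RPM in DEN fibers, 13.4, 16.2, 18.3 and 12.4 RPM in sham fibers, 12.8, 13.3, 12.1 and 12.4 RPM in DEN TA, and 19, 19.3, 19.2 and 18.4 RPM in sham TA. DEN and sham did not overlap in either preparation and lay in opposite order (interaction 1.19 ± 0.20, edgeR adjusted p = 0.00074), although the fall in TA did not pass with total counts alone (-0.16, adjusted p = 0.34). Notch3, a receptor of mural cells, had an interaction of 1.32 ± 0.27 (edgeR adjusted p = 0.0034). Of 20 endothelial genes 6 were positive and none negative (median 0.35), among them von Willebrand factor (Vwf, 1.60 ± 0.43), Ptprb (0.76 ± 0.19) and the junction gene Cdh5 (0.51 ± 0.15). None of the 20 rose after DEN with TMM scaling, while 11 fell in fibers and 17 fell in TA. With total counts alone 7 rose and none fell in fibers, and none rose and 10 fell in TA.

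Macrophage genes rose after DEN in 24 of 25 members in fibers and in 13 in TA (25 and 20 with total counts alone). In 7 of the 25 the interaction was positive and in none negative, and the sign was positive in all 25 (median 0.99). Their summed level was 283.5, 289.4, 352.2 and 348.5 RPM in DEN fibers, 86.84, 68.91, 132.9 and 63.94 RPM in sham fibers, 346.1, 333, 390.9 and 481.6 RPM in DEN TA, and 287.4, 162.2, 156.6 and 183.7 RPM in sham TA. Sham fibers were the lowest group, and TA sham replicate 1 stood near the DEN TA libraries. The count of 7 became 15 without sham fiber replicate 3, 11 without TA sham replicate 3 and 14 with DESeq2, so its size depended on single libraries. Cd163, a receptor of resident macrophages, was at 4.02, 3.87, 7.61 and 4.63 RPM in DEN fibers, 1.68, 2.21, 3.94 and 1.71 RPM in sham fibers, 3.26, 2.81, 2.92 and 2.38 RPM in DEN TA, and 5.52, 4.35, 3.6 and 3.01 RPM in sham TA (interaction 1.60 ± 0.39, edgeR adjusted p = 0.0093). Folr2 (1.59) and Lyve1 (1.69), of the same resident class, also passed, as did the antibody receptor gene Fcgr1 (1.76 ± 0.45) and the colony-stimulating factor receptor gene Csf1r (1.02 ± 0.33). Fcgr1 was low, at 0.0786 to 1.36 RPM over all libraries. Csf1r did not pass with total counts alone (1.09, edgeR adjusted p = 0.055). Cd68, a lysosomal marker of macrophages, rose by 2.25 in fibers and by 2.13 in TA with an interaction of 0.12 ± 0.39 (edgeR adjusted p = 0.87), and Adgre1 did not pass (1.16 ± 0.44, edgeR adjusted p = 0.078). Of 19 complement genes 5 were positive and 1 negative, a count that ran from 3 to 11 when 1 library was left out, with 3 without DEN fiber replicate 3 or 4 or TA DEN replicate 1, 8 without TA sham replicate 3 and 11 without sham fiber replicate 3.

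Interleukin 1 beta (Il1b), an inflammatory cytokine, was at 5.39, 7.9, 3.96 and 5.71 RPM in DEN fibers, 0.707, 0.752, 1.56 and 0.698 RPM in sham fibers, 0.12, 0.154, 0.149 and 0.179 RPM in DEN TA, and 0.333, 0.0746, 0.077 and 0.0966 RPM in sham TA. It rose in fibers and the effect in TA did not pass (0.04, interaction 2.57 ± 0.64, edgeR adjusted p = 0.011), and without TA sham replicate 1, the highest sham TA library, the interaction was 1.84 and no longer passed. Nckap1l, a subunit of the WAVE complex in blood cells, had 11.7, 13.3, 12.1 and 14.4 RPM in DEN fibers, 0.786, 0.821, 1.49 and 0.635 RPM in sham fibers, 4.48, 4.21, 5.01 and 5.45 RPM in DEN TA, and 2.75, 1.44, 1.29 and 1.66 RPM in sham TA (interaction 2.35 ± 0.32, edgeR adjusted p = 0.00015). The immunoglobulin segment Ighg2c, whose reads may be shared with related segments, had an interaction of 2.40 ± 0.53 (edgeR adjusted p = 0.0059). The neutrophil gene S100a8 was at 38.6 to 45.3 RPM in DEN fibers, 0 to 0.367 RPM in sham fibers, 12.8 to 17.5 RPM in DEN TA and 0.0192 to 0.375 RPM in sham TA, and its interaction of 1.75 ± 0.84 did not pass (edgeR adjusted p = 0.16) except without sham fiber replicate 1 (2.90). The only called member of the neutrophil list was Mmp9, with a negative interaction (-2.96) that lost its call in 10 of 25 alternative settings. Mmp9 was at 6.51, 8.68, 0.58 and 5.11 RPM in DEN TA and 0.908 to 1.77 RPM in sham TA. In fibers it was at 0.152 to 0.265 RPM after DEN and 0.236 to 0.684 RPM after sham surgery. The remaining neutrophil genes stayed at 2.07 RPM or below. Among them S100a9 was at 0.334 to 0.487 RPM in DEN fibers and 0.174 to 0.995 RPM in sham fibers, and Ly6g at 0 in all libraries.

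Among metabolic genes, Car3 (chr3:14863512-14872523), a carbonic anhydrase of slow muscle and fat, was at 4420, 4460, 3850 and 4130 RPM in DEN fibers, 274, 155, 125 and 204 RPM in sham fibers, 6490, 6470, 6600 and 6010 RPM in DEN TA, and 2750, 2240, 2310 and 2550 RPM in sham TA. Groups did not overlap, and sham fibers lay far below the other 3 groups. The interaction was 3.10 ± 0.24 (edgeR adjusted p = 7.5e-07), from rises of 4.48 in fibers and 1.38 in TA. Car3 is also high in fat cells, whose defining gene Adipoq was at at most 0.941 RPM in DEN fibers, 0.183 RPM in sham fibers, 6.59 RPM in DEN TA and 7.63 RPM in sham TA, and its DEN effects did not pass in either preparation. Scd1, the desaturase that makes monounsaturated fatty acids, had 314, 272, 360 and 382 RPM in DEN fibers, 15.5, 16.2, 21.1 and 12.7 RPM in sham fibers, 88.6, 106, 126 and 132 RPM in DEN TA, and 25.7, 33.1, 14.5 and 83.6 RPM in sham TA. TA sham replicate 4 stood close to the DEN TA libraries, and Adipoq was highest in that library too. The interaction was 2.81 ± 0.51 (edgeR adjusted p = 0.0015). Of 19 lipogenic enzymes 4 were positive and none negative.

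The insulin-responsive glucose transporter Slc2a4 fell by less in fibers than in TA (interaction 0.50 ± 0.12, edgeR adjusted p = 0.0084). Of 78 nuclear genes of oxidative phosphorylation 2 passed, both negative, of which Atp5g2 (-0.28 ± 0.08) lost its call in 15 of 25 alternative settings. Of 13 mitochondrially encoded protein genes 0 passed by edgeR, DESeq2 or limma voom, and 3 had an unadjusted p under 0.05 (median -0.18). Of 28 glycolysis and glycogen identifiers 3 were positive and 1 negative, where 7.09% of all genes tested were positive and 11.8% negative. Polyamine genes were split, with 3 positive and 4 negative of 12. Amd1, which makes the aminopropyl donor and whose reads may be shared with Amd2, fell by less in fibers (interaction 0.81 ± 0.16), whereas the catabolic gene Sat1 (-1.69 ± 0.15) and the rate-limiting gene Odc1 (-0.82 ± 0.19) were negative.

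**Figure D5:**
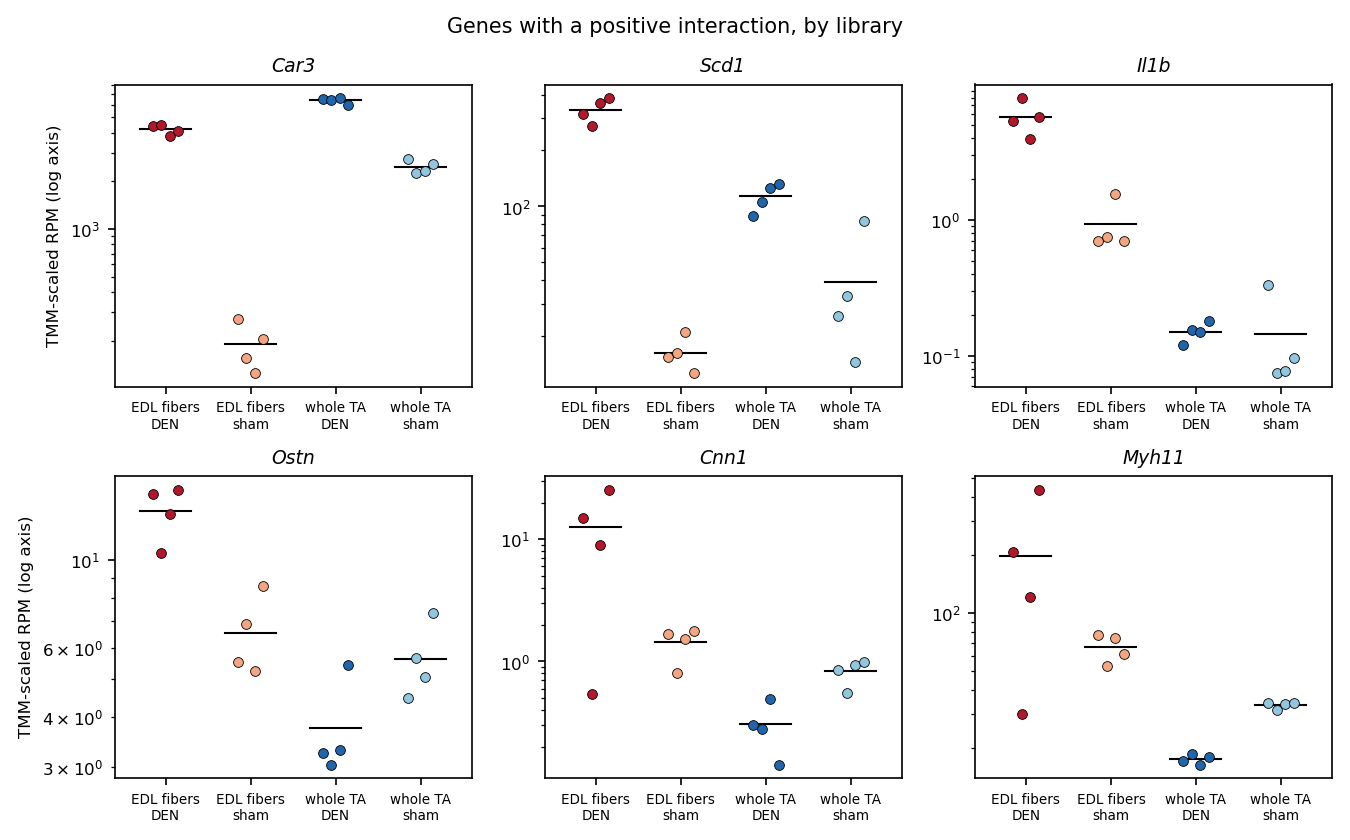
TMM-scaled RPM (log axis) of 6 genes with a positive interaction in each library, with DEN left of sham within EDL fibers and then within whole TA, and bars at group means. Sham fibers were the lowest group for Car3 and Scd1, and DEN fiber replicate 2 lay below the other DEN fiber libraries for Cnn1 (0.538 RPM) and Myh11 (30 RPM).

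Fast sarcomere genes fell after DEN in 21 of 25 members in both preparations (17 with total counts alone). Of these 25, 5 had a negative interaction, or 3 without DEN fiber replicate 2, sham fiber replicate 1 or 4, TA DEN replicate 2, 3 or 4, or TA sham replicate 1, 2 or 4. Mybpc2, the fast myosin-binding protein, was at 389, 421, 211 and 412 RPM in DEN fibers, 5180, 3810, 4210 and 4970 RPM in sham fibers, 1040, 1240, 1040 and 1330 RPM in DEN TA, and 6190, 5740, 6780 and 5590 RPM in sham TA (interaction -1.28 ± 0.25, edgeR adjusted p = 0.0022). The fast myosin Myh4 also fell by more in fibers (-0.67 ± 0.20, edgeR adjusted p = 0.027). Myh4 and Mybpc2 fell by more in fibers on the log2 scale alone, since the difference in RPM was larger in TA (Mybpc2, linear interaction 730 RPM). Among 20 slow sarcomere genes 3 were positive and 2 negative, with 3 to 6 positive and 1 to 4 negative when 1 library was left out. Over all genes tested 7.09% were positive and 11.8% negative. The slow myosin Myh7 had 22.1, 24.4, 14.1 and 42.4 RPM in DEN fibers, 1.18, 8.98, 6.39 and 3.11 RPM in sham fibers, 3.44, 2.32, 3.33 and 2.95 RPM in DEN TA, and 3.21, 4.2, 2.12 and 2.76 RPM in sham TA. It rose in fibers and the effect in TA did not pass (-0.02, interaction 2.40 ± 0.62, edgeR adjusted p = 0.013). The cardiac calsequestrin Casq2, a calcium-binding protein of the sarcoplasmic reticulum, rose by 1.85 in fibers with 0.09 in TA, which did not pass (interaction 1.75 ± 0.32, edgeR adjusted p = 0.0016), whereas sarcolipin (Sln), an inhibitor of the calcium pump, rose by more in TA (-2.15 ± 0.31).

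Developmental sarcomere genes were split, with 3 positive and 8 negative of 19. Embryonic myosin Myh3 was at 230, 201, 274 and 163 RPM in DEN fibers, 17.3, 36, 28.1 and 24.3 RPM in sham fibers, 130, 139, 271 and 177 RPM in DEN TA, and 77.6, 82.1, 59.8 and 97.9 RPM in sham TA. DEN groups overlapped and sham fibers were below sham TA (interaction 1.86 ± 0.35, edgeR adjusted p = 0.0017). The keratin gene Krt18, whose reads may include pseudogene copies, had 236, 177, 187 and 217 RPM in DEN fibers, 0.262, 0.0456, 0.212 and 0.317 RPM in sham fibers, 415, 397, 380 and 461 RPM in DEN TA, and 0.104, 0.149, 0.077 and 0.0966 RPM in sham TA (interaction -2.01 ± 0.46, edgeR adjusted p = 0.0066, not passed with limma voom). Cardiac actin Actc1 fell by 3.86 in fibers, and its effect of -0.91 in TA did not pass (edgeR adjusted p = 0.11), which gave an interaction of -2.94 ± 0.69 (edgeR adjusted p = 0.0078).

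Genes of muscle stem cells, which sit on the fiber and are kept with it during isolation, were divided too. Of 19 tested, 4 were positive and 5 negative, and 4 of the calls had opposite DEN effects (1 with total counts alone). Pax7, the defining factor of these cells, was at 2.5, 3.26, 3.58 and 3.25 RPM in DEN fibers, 1.96, 1.3, 2.9 and 2.52 RPM in sham fibers, 1.8, 2.33, 2.1 and 2.5 RPM in DEN TA, and 3.31, 3.58, 3.69 and 3.01 RPM in sham TA. DEN was the lower group in TA without overlap, and fiber groups overlapped. The interaction was 1.17 ± 0.27 (edgeR adjusted p = 0.0068), while the effect in TA, -0.64, did not pass with total counts alone (-0.21, adjusted p = 0.35). Heyl, a target of Notch, had 7.15, 7.61, 9.43 and 8.69 RPM in DEN fibers, 4.19, 5.74, 7.05 and 5.23 RPM in sham fibers, 7.47, 7.37, 6.07 and 6.36 RPM in DEN TA, and 12.3, 13.4, 11.3 and 13 RPM in sham TA. It rose in fibers and fell in TA, with calls and signs kept with total counts alone (interaction 1.44 ± 0.18, edgeR adjusted p = 7.8e-05). The Notch ligand Dll1 (-1.71 ± 0.19) and the Notch target Hes1 (-1.68 ± 0.32) were on the negative side.

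Genes that the study singled out differed in the size and sign of their interaction. Ostn, the fiber-derived peptide musclin, was at 14.6, 10.4, 13 and 15 RPM in DEN fibers, 5.5, 6.88, 5.23 and 8.57 RPM in sham fibers, 3.25, 3.04, 3.31 and 5.43 RPM in DEN TA, and 4.47, 5.65, 5.06 and 7.32 RPM in sham TA. DEN was above sham in fibers without overlap, and TA groups overlapped through TA DEN replicate 4. The interaction was 1.60 ± 0.29 (edgeR adjusted p = 0.0014), with a fall of 0.59 in TA that was -0.17 with total counts alone (adjusted p = 0.50). Tgfb1, a growth factor of fibrosis, was at 25.8, 26.2, 24.6 and 21.8 RPM in DEN fibers, 13.3, 12, 11.7 and 8.72 RPM in sham fibers, 40, 43.3, 41.3 and 39.9 RPM in DEN TA, and 9.84, 7.32, 7.31 and 10.1 RPM in sham TA (interaction -1.14 ± 0.17, edgeR adjusted p = 0.00031). Osteopontin (Spp1) did not pass (-1.62 ± 0.61, edgeR adjusted p = 0.077), but did without sham fiber replicate 4 (-1.87) or TA sham replicate 1 (-2.71). The prostaglandin-degrading enzyme Hpgd did not pass (-1.43 ± 0.50, edgeR adjusted p = 0.056), but did without sham fiber replicate 1 (-1.63) or TA DEN replicate 3 (-1.55). The BMP antagonist Chrd (-0.11 ± 0.23, edgeR adjusted p = 0.79) and the intracellular factor Fgf13 (-0.11 ± 0.11, edgeR adjusted p = 0.52) gave no call.

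Of 35 matrix glycoproteins 8 were positive and none negative, where 7.09% of all genes tested were positive and 11.8% negative, a count that became 18 without sham fiber replicate 3 and 5 without DEN fiber replicate 3 or TA DEN replicate 3. Nidogen (Nid1), of the basement membrane, had an interaction of 1.12 ± 0.25 and elastin (Eln), of vessel walls, one of 2.12 ± 0.50. Of 32 collagens 5 were positive and 2 negative, or 10 positive without sham fiber replicate 3. Of 37 members of TGF-beta and BMP signalling 9 were positive and 6 negative (median 0.08). Of 6 erythroid genes 0 passed by edgeR, DESeq2 or limma voom, 0 had an unadjusted p under 0.05, and their summed level was highest in sham fiber replicate 1 (1486 RPM) and TA sham replicate 1 (962.7 RPM).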

How the data were processed

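RNA was sequenced from 16 libraries with a directional kit after polyA selection. Per the labels, the authors used bcl2fastq 2.20.0.422, cutadapt 2.1, TopHat2 2.1.0 and featureCounts 1.6.5 on GRCm38, and deposited raw read counts per gene. From these counts, 17497 of 55487 identifiers passed filterByExpr (minimum count 10) and were fitted together in edgeR 4.0.16 (R 4.3.3) with 4 groups, TMM factors and the quasi-likelihood test, with Benjamini-Hochberg adjustment over all genes tested and a threshold of 0.05. Tests were checked on simulated data. Alternatives were other scalings, filters and thresholds, DESeq2 1.42.0, limma 3.58.1 voom, replicate blocks and leaving out each library. Intervals of single libraries would cover counting error only and are not given. The genes named were the 12 largest positive and 12 largest negative called interactions and 8 genes with opposite DEN effects, all with a mean of at least 10 RPM in the highest group, up to 3 called members of each list at 1 RPM or more, and 12 genes the study turns on. A part of these 130 is described, some genes are not reported here, and further list members were added after their values were seen. The genes, lists and tests were chosen with earlier results of these data known.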

Additional observations from a re-analysis of the deposited data

Results flagged for a closer look

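The difference in DEN effect between fibers and TA was itself tested, and it passed in 3307 genes, of which 1241 were positive and 2066 negative, with 878 of at least 1 log2 unit and 294 with opposite DEN effects. Among the 8 named genes with opposite effects, the interaction was -4.31 for Junb, -3.91 for Egr3, -3.88 for Otud1, -3.88 for Atf3, -3.55 for Ciart, -2.99 for Jun, -2.88 for Impact and -2.86 for Csrnp1.

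Of 212 groups of 4 libraries examined, 10 held a library far from the others by Dixon's criterion, and chance gives about 1 in 20. In fibers after DEN these were Jun at 453 RPM in replicate 3 (others 349 to 363) and Atf3 at 324 RPM in replicate 4 (others 229 to 231). In sham fibers they were Adcy5 at 5.1 RPM in replicate 3 (others 2.94 to 3.12), the summed level of activated fibroblast genes at 488 RPM in replicate 3 (others 197 to 221), Myog at 3.65 RPM in replicate 2 (others 4.03 to 4.09) and Mt2 at 141 RPM in replicate 4 (others 248 to 277). In DEN TA they were Ostn at 5.43 RPM in replicate 4 (others 3.04 to 3.31) and the summed level of the fat cell list at 6200 RPM in replicate 4 (others 6740 to 6800), of which Car3, a gene of slow muscle too, made up 6010 RPM. In sham TA they were Myh11 at 31.3 RPM in replicate 2 (others 33.9 to 34.3) and Ciart at 2.36 RPM in replicate 4 (others 0.924 to 0.995).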

How the results depend on the processing

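At an adjusted p threshold of 0.01 there were 1474 interaction calls (479 positive, 995 negative, 502 of at least 1 log2 unit), and at 0.1 there were 4663, of which 1890 were positive. Negative calls numbered 1173 with total counts alone and 1227 without the filter on low counts. Without 1 library, calls ranged between 2475 and 3769, positive ones between 1116 and 1628, negative ones between 1244 and 2141, those of at least 1 log2 unit between 765 and 1099, and genes with opposite DEN effects between 220 and 385. DESeq2 gave 3652 calls and limma voom 3174. Of the 3307 calls, 70.6% to 97.7% were kept at the threshold of 0.05 under each other scaling, filter, tool, block and left-out library, and 0 turned sign. On a linear scale of TMM-scaled RPM, an alternative chosen after seeing the data, 74 (2.24%) had the other sign, among them Mybpc2, Myh4, Ncam1, Gdf15 and Ighg2c. With a replicate block by number there were 3312 calls, and with a block within surgery 3301. Deviations of same-numbered libraries correlated between -0.059 and 0.24, over 0.1 in 7 of 16 pairs, which include pairs of DEN and sham libraries. Between fibers and TA the same-numbered values were 0.123, -0.0248, -0.0221 and 0.185 after DEN. After sham surgery they were 0.152, 0.165, -0.059 and 0.0818. Different-numbered libraries of fibers and TA within a surgery lay between -0.177 and 0.116. Whether the numbers mark shared animals was not settled, and the main fit used no pairs. Of 130 named genes 100 kept their call in all 25 settings, 25 lost it and 3 gained it in at least 1. Interactions that were not called turned sign for Chrd (0.0175, 0.0104, 0.0272, 0.0421 and 0.021) and Fgf13 (0.0141 and 0.00138), each time without 1 library, with leave-one-out ranges down to -0.165 for Chrd and -0.167 for Fgf13. The causes of these changes were not tested.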
